A study of Homo sapiens with 3 samples.

Results

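The protein kinase C (PKC) isoforms examined here were 8 genes, namely PRKCA, PRKCB, PRKCD, PRKCE, PRKCH, PRKCI, PRKCQ and PRKCZ. They were found by matching the RefSeq transcript named for each array probe to a gene symbol, and all 8 genes had a probe. They took up 9 of the 34041 probes used and 8 of the 19699 genes that could be named. PRKCB had 2 probes and each of the other genes had 1. The cells were PANC-1, an established human line from a carcinoma of the pancreatic duct, either as control or after 24 h with cantharidin or okadaic acid (OA). The sample labels give 20 µM for each agent, although the shared treatment text attaches that dose to cantharidin in wording that is less clear for OA, and the control's vehicle is not given. Each group was 1 array, so differences between groups could be described but not tested. All arrays lay on 1 slide, where position went with the group.

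PKCs are kinases that phosphorylate serine and threonine residues and respond to lipid signals at membranes. Conventional isoforms need both calcium and diacylglycerol, a lipid that phospholipase C releases. A second class needs diacylglycerol only. Atypical isoforms respond to neither and work through protein partners of cell polarity and of the scaffold p62. Newly made PKC becomes competent through phosphorylation by the kinase PDK1 and is silenced when phosphatases remove the phosphates. Cantharidin and OA both inhibit protein phosphatase 2A (PP2A), and the study asked what part PKC and other kinase pathways have in the response to cantharidin. The arrays measure transcripts of the isoforms, not the activity of the kinases.

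Signals are given as intensity units before scaling between arrays. Differences and folds are on the log2 scale after each array was set to its 75th percentile, which stood at 784 units for control, 713 for cantharidin and 936 for OA. Because these percentiles differ, equal intensities on a pair of arrays are not equal levels. The error after an intensity is the scanner software's own estimate for the spot. It covers the spot and not the culture. The dimmest probe called well above background had 35.0 units in control, 21.9 with cantharidin and 58.0 with OA, so OA had the highest limit. Markers of the labelled cell type were present, since 9 of 10 duct epithelial markers were well above background in control cells and KRT18 reached 70664 units. CFTR was below background on every array and CDH1 on those of both agents. Of 9 duct markers compared with control, 1 was at least 1.5-fold higher and 6 lower under cantharidin. Under OA 2 of 9 were higher and 6 lower. Among all genes compared, 26.3% were higher and 34.0% lower under cantharidin, and 28.0% and 27.0% under OA. All 9 matched leukocyte markers were also well above background on every array, with PTPRC at 372 units in control. Of these 9, 1 was at least 1.5-fold higher and 2 lower under cantharidin, and 2 were higher and 0 lower under OA. Their summed scaled signal was 14.7 in control, 14.4 under cantharidin and 33.7 under OA. The 2 higher under OA were CD14 and CD68, at 3.65-fold and 3.62-fold above control. Of 7 endothelial and fibroblast markers, 5 were well above background in control and 4 under each agent. Of 5 compared with control, 1 was at least 1.5-fold higher and 3 lower under cantharidin, and 0 were higher and 3 lower under OA. The part of these leukocyte, endothelial and fibroblast marker signals in the results was not tested.

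**Figure D1:**
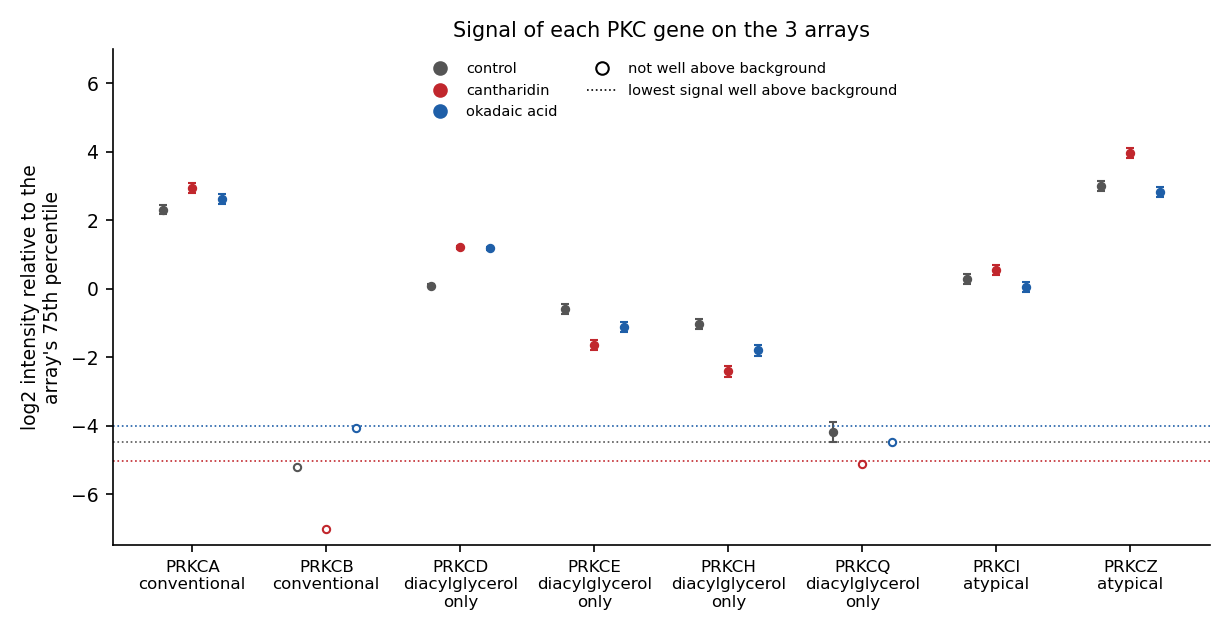
Signal of the 8 PKC genes on the control (grey), cantharidin (red) and okadaic acid (blue) arrays, as log2 intensity relative to the array's 75th percentile, with the scanner software's spot error as bars for signals well above background. Open circles were not well above background, and dotted lines mark the lowest signal well above background on each array. PRKCB lies below its line on all 3 arrays and PRKCQ is above it in control only.

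The control or the cantharidin array gave a signal well above background for 7 of the 8 genes, which could be compared. With cantharidin, 3 were at least 1.5-fold higher (PRKCA, PRKCD and PRKCZ) and 3 at least 1.5-fold lower (PRKCE, PRKCH and PRKCQ). Among all 16644 genes compared, 26.3% were that much higher and 34.0% that much lower, so calls of this size were common. With OA, 7 genes could be compared, of which only PRKCD was at least 1.5-fold higher and only PRKCH at least 1.5-fold lower. The background was 28.0% higher and 27.0% lower. The median log2 difference of the PKC genes with a fold was 0.26 under cantharidin and -0.21 under OA, against -0.17 and 0.02 over all genes. No PKC gene was past the threshold on one side for cantharidin and on the other for OA. Both comparisons rest on the same control array. In bulk RNA, fewer cells that make a transcript and less of it per cell cannot be told apart.

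**Figure D2:**
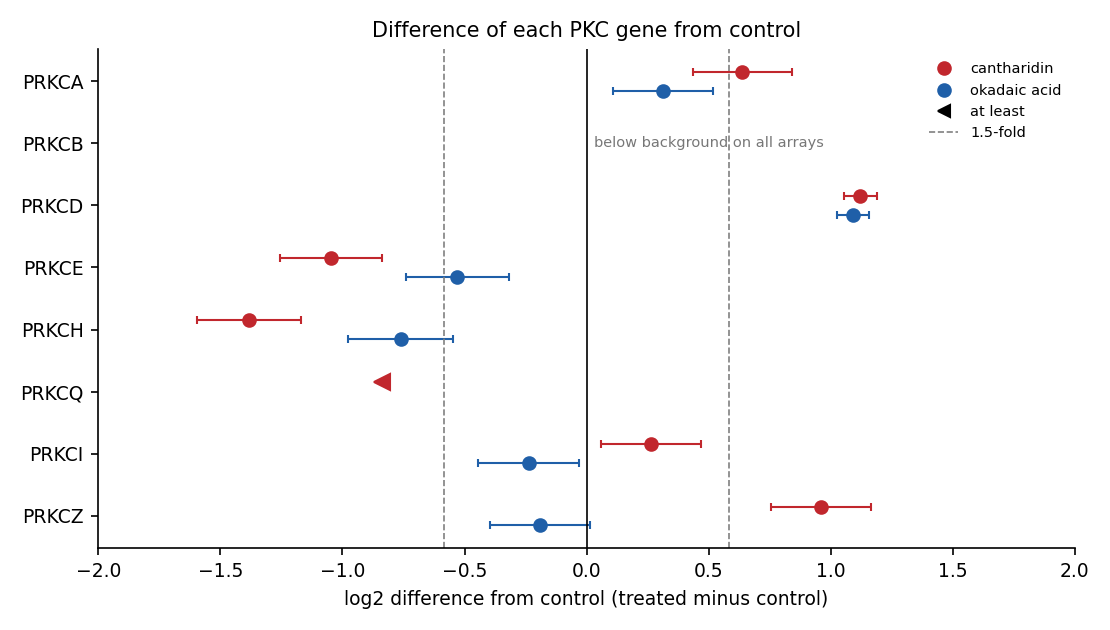
Log2 difference from control (treated minus control) of each PKC gene for cantharidin (red) and okadaic acid (blue), with the combined spot error as bars and 1.5-fold as dashed lines. The triangle is a bound for PRKCQ. PRKCD stands to the right of the line for both agents, PRKCH to the left for both, and PRKCZ passes the line for cantharidin only.

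Among the conventional isoforms, PRKCA encodes PKCα, the form found in most tissues. Its intensity was 3903 ± 390 in control, 5520 ± 552 under cantharidin and 5790 ± 579 under OA. Both treated arrays lay above control. After scaling, the level was 1.56-fold higher under cantharidin, a log2 difference of 0.64 ± 0.20, which only just passed the threshold. Without scaling between arrays it was 0.50 and no longer passed. Under OA the level was 1.24-fold higher, at 0.31 ± 0.20, and stayed within 1.5-fold in all 11 processing alternatives. Of these 11, only 6 gave another value for a gene such as PRKCA, read on 1 bright probe, and the other 5 left it as it was by construction.

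PRKCB encodes PKCβ, which is prominent in B lymphocytes. Neither of its probes was well above background on any array. The brighter probe read 21.4 ± 7.33 units in control, 5.54 ± 5.52 under cantharidin and 55.7 ± 13.2 under OA, which is 0.61, 0.25 and 0.96 times the limit of the respective array. The other probe read 7.13, 5.30 and 12.1 units. No fold is given, since both sides of each comparison lay below background.

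The isoforms that need diacylglycerol but not calcium diverged from each other. PRKCD and PRKCH were past 1.5-fold in opposite directions under each agent, and PRKCE was on the side of PRKCH. PRKCD encodes PKCδ, often linked to apoptosis and to the response to DNA damage. Its probe was printed as 10 spots on the array, which makes it the best measured of the isoforms. In control the 10 spots ran from 786 to 886 units with a median of 837. Under cantharidin the 9 spots without an outlier flag ran from 1570 to 1711, with a median of 1668. Under OA the 10 spots ran from 2066 to 2171 around a median of 2121. The tenth cantharidin spot carried an outlier flag and was left out of the mean. It read 780 units, or 0.13 on the scaled log2 axis, which is within the control range. None of the unflagged treated spots overlapped a control spot, before or after scaling. On the scaled log2 axis the SD over spots was 0.06 in control, 0.05 under cantharidin and 0.02 under OA. PRKCD was 2.18-fold higher under cantharidin (log2 difference 1.12) and 2.13-fold higher under OA (1.09). The spots of the treated arrays overlapped after scaling, and the difference of OA from cantharidin was -0.03. Both differences from control passed 1.5-fold in all 11 alternatives, with a range of 0.98 to 1.19 for cantharidin and of 0.97 to 1.35 for OA.

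**Figure D3:**
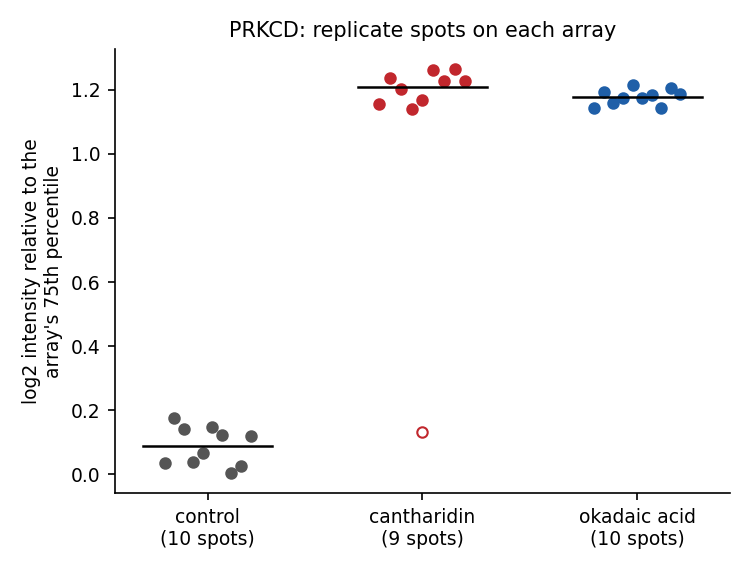
Replicate spots of the PRKCD probe on each array, as log2 intensity relative to the array's 75th percentile, with the mean as a black line (10 control, 9 cantharidin and 10 okadaic acid spots without outlier flags, and 1 flagged cantharidin spot as an open circle, left out of the mean). The highest control spot lies at 0.18, the lowest unflagged spots of the treated arrays at 1.14 and the flagged spot at 0.13. Spots of an array share 1 RNA sample.

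PRKCE encodes PKCε, a form tied to cell migration and to cytoskeletal signals. Its intensity was 522 ± 52.8 in control, 229 ± 23.7 under cantharidin and 431 ± 45.1 under OA. The cantharidin array was the lowest and OA lay between it and control. The level was 2.07-fold lower under cantharidin, a log2 difference of -1.05 ± 0.21 that stayed past 1.5-fold in all 11 alternatives. Under OA it was 1.44-fold lower, at -0.53 ± 0.21. This value lay just inside the threshold and was past it in 2 of 11 alternatives, namely median scaling (-0.65) and the authors' normalized table (-0.61).

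PRKCH encodes PKCη, an isoform of epithelial tissues. It gave 383 ± 38.9 units in control, 133 ± 14.4 under cantharidin and 270 ± 29.6 under OA, the same order as PRKCE. PRKCH was 2.61-fold lower under cantharidin (-1.38 ± 0.21), the largest difference of any PKC gene in the main setting, and 1.70-fold lower under OA (-0.76 ± 0.22). The cantharidin difference held past 1.5-fold in all 11 alternatives. The OA difference held in 10 of 11 and was -0.51 without scaling.

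PRKCQ encodes PKCθ, best known from T lymphocytes. It was well above background in control only, at 43.1 ± 8.88 units or 1.23 times the limit. The reading was 20.3 ± 5.85 units under cantharidin and 41.8 ± 13.3 under OA. The level was therefore at least 1.79-fold lower under cantharidin, a bound that leaves out the error of the control signal. No fold can be given for OA, where the limit of the array was higher than the control signal after scaling. The bound for cantharidin passed 1.5-fold in 8 of the 10 alternatives that gave a value, and 3 of the 10 repeated the main value. The log2 difference was -0.20 with the normexp background correction and -0.45 with the authors' normalized table, both within 1.5-fold. PRKCQ-AS1, a non-coding gene beside PRKCQ, read 40.5, 36.0 and 61.1 units and was below background under OA.

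To show the sequence before genes that lay past 1.5-fold on either side of control, the 250 bases upstream of the first listed start of PRKCD (higher under both agents), PRKCE (lower under cantharidin, within 1.5-fold under OA) and PRKCH (lower under both) are printed from RefSeq on GRCh38.p14, 5′ to 3′ on the gene's strand. Capitals mark the GC box GGGCGG or its other strand CCGCCC, the motif of the Sp1 family, which was searched because the series title names Sp1.
PRKCD, chr3:53160959-53161208, plus strand: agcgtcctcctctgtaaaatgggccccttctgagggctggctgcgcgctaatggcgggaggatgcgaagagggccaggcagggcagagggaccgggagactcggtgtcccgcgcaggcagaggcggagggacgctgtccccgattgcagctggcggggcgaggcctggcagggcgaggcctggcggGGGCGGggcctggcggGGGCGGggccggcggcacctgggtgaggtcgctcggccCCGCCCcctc
PRKCE, chr2:45651425-45651674, plus strand: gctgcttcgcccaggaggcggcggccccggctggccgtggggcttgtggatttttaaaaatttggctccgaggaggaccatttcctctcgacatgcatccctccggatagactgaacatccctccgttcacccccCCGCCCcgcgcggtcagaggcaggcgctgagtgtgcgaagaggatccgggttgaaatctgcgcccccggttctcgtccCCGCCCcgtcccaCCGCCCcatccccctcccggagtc
PRKCH, chr14:61321329-61321578, plus strand: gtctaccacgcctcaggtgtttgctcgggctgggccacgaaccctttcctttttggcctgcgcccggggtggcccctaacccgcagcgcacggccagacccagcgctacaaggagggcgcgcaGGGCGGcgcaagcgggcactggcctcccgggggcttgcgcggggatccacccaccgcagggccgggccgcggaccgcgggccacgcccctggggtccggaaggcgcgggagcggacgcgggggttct

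These stretches hold 3 GC boxes for PRKCD, 3 for PRKCE and 1 for PRKCH. A link between the boxes and the direction of a difference was not tested. The 8 genes have 13 listed starts, with 3 for PRKCD and 4 for PRKCZ, and 10 of the 13 upstream stretches hold a GC box on either strand, against 42.6% of all 35116 stretches. Their GC content ran from 49.2% for PRKCQ to 82.0% for PRKCA, and the median over all stretches was 58.0%. The stretch upstream of PRKCQ holds no GC box. The AP-1 motif TGANTCA was found in 0 of the 13 (6.57% of all stretches) and the CRE motif TGACGTCA in 1, at a start of PRKCZ (1.65% of all). The NF-κB consensus was found in 1, at another start of PRKCZ (9.96% of all). Both strands were searched for each motif. A match describes these letters and is not evidence of binding. Which start the probed transcripts use was not measured.

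Of the atypical isoforms, PRKCZ differed between the agents by more than 1.5-fold and PRKCI did not. PRKCZ encodes PKCζ, a partner of the polarity proteins PAR3 and PAR6. It gave 6342 ± 634 units in control, 11222 ± 1120 under cantharidin and 6633 ± 663 under OA. Only the cantharidin array stood apart. The level was 1.95-fold higher under cantharidin (0.96 ± 0.20) and past 1.5-fold in all 11 alternatives. Under OA it differed from control by 1.14-fold (-0.19 ± 0.20), less than the spot error. PRKCI encodes PKCι, the other atypical kinase and a known oncogene of epithelial cancers. Its intensity was 953 ± 95.7, 1040 ± 104 and 965 ± 97.6 units in control, cantharidin and OA cells. The log2 difference was 0.26 ± 0.20 under cantharidin and -0.24 ± 0.21 under OA. Neither passed 1.5-fold in any of the 11 alternatives, and that under OA turned to 0.02 without scaling.

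The agents were then set against each other, at the same labelled dose and time. Of 6 PKC genes well above background on at least 1 of these arrays, PRKCH was at least 1.5-fold higher and PRKCZ at least 1.5-fold lower with OA than with cantharidin. Over all 16200 genes the shares were 29.4% higher and 20.5% lower. PRKCZ was 2.22-fold lower (-1.15 ± 0.20) and stayed past the threshold in all 11 alternatives. PRKCH was 1.54-fold higher (0.62 ± 0.22), but below the threshold in 3 of 11 alternatives, with 0.36 as the lowest value. PRKCE (0.52 ± 0.21) and PRKCI (-0.50 ± 0.21) lay just inside 1.5-fold with opposite signs. PRKCD and PRKCA differed by 1.02-fold and 1.25-fold. The spot error of these differences is an SD, so a 95% range would be about as wide again on each side. By this error, differences smaller than that range could not be resolved for the genes read on 1 spot per array. The SD over replicate spots of other probes at like brightness was smaller, at 0.09 to 0.15 for these genes. Neither measure covers the spread between cultures, so a difference beyond them is not thereby resolved.

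**Figure D4:**
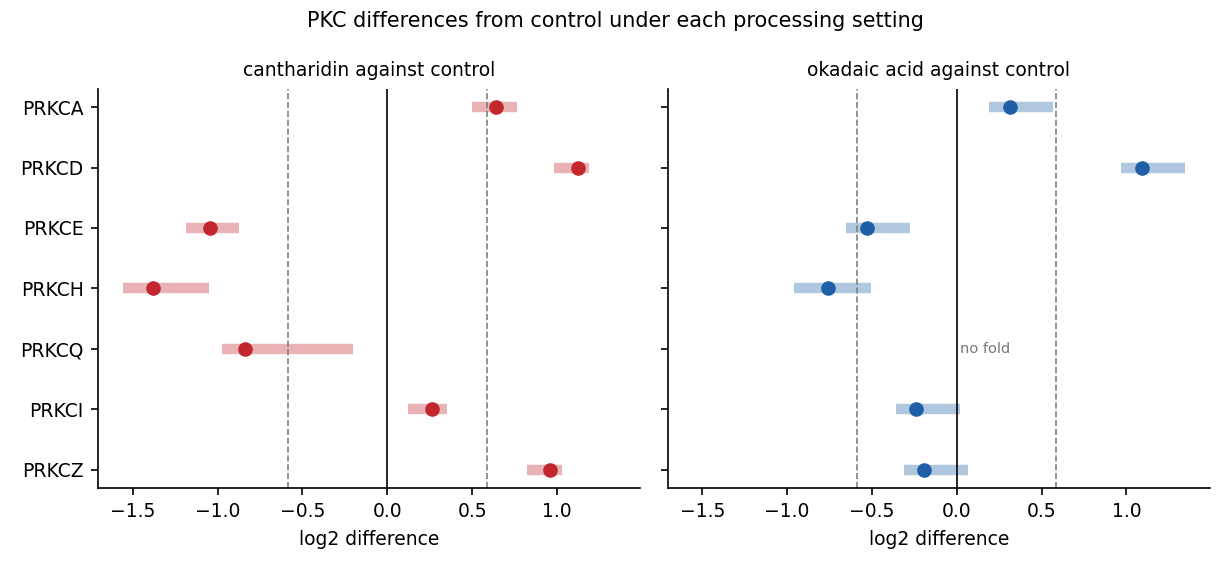
Log2 difference from control of each PKC gene in the main setting (points) and its range over the processing alternatives (bars), for cantharidin (left) and okadaic acid (right), with 1.5-fold as dashed lines. The bars of PRKCD, PRKCE, PRKCH and PRKCZ stay past 1.5-fold under cantharidin, as that of PRKCD does under okadaic acid, and those of PRKCA and PRKCQ reach across the line under cantharidin.

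By pattern over the 3 arrays, the genes closest to PRKCH were PIM2, another serine/threonine kinase, and NOP9. Closeness was the distance between pairs of log2 differences from control (one per agent), at 0.01 for PIM2 and 0.03 for NOP9 among 14222 genes well above background on all arrays. PIM2 read 1167, 411 and 820 units in control, cantharidin and OA cells, with log2 differences of -1.37 and -0.76. There were 28 genes within 0.1 of PRKCH, so a pattern over 3 arrays singles out no partner.

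For the genes around PKC, 9 lists held 90 genes, of which 75 could be compared with control under each agent. Under cantharidin 20 were at least 1.5-fold higher (26.7%) and 24 lower (32.0%), near the 26.3% and 34.0% of all genes. Under OA 18 were higher (24.0%) and 21 lower (28.0%), near 28.0% and 27.0% of all genes. The calls rest on the brightest probe. Another probe of the gene was called otherwise for 5 of the 44 genes called under cantharidin and for 4 of 39 under OA. For 2 and 2 of these genes it was called in the opposite direction. Both totals include genes with only 1 compared probe, which could not differ, so they understate how often probes disagree. Genes not called on the brightest probe were not checked in this way. The list for maturation and dephosphorylation of PKC, which includes its chaperones, held genes past 2-fold higher under both agents. PDPK1, which encodes PDK1, read 507, 1328 and 1930 units in control, cantharidin and OA cells and was 2.88-fold and 3.19-fold higher. Its second probe gave 3.59-fold and 3.56-fold. PHLPP2, a phosphatase that removes a phosphate from PKC, was 3.22-fold and 3.41-fold higher on the probe above background. Of the 12 genes in this list, 4 were higher and 1 lower under cantharidin, and 7 higher and 3 lower under OA. Of these 7, HSP90AA1 was 1.88-fold higher on its brightest probe and 2.85-fold and 3.91-fold lower on the other two, and RBCK1 was 1.51-fold higher on its brightest probe, with log2 differences of -0.05 and -0.77 on the other two.

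The enzymes that supply and remove diacylglycerol were mixed, beside 26.3% higher and 34.0% lower among all genes under cantharidin and 28.0% and 27.0% under OA. Of 12 phospholipase C genes compared, 4 were higher and 6 lower under cantharidin, and 2 higher and 5 lower under OA. For PLCD3 the level with cantharidin was 2.30-fold lower, and with OA it was at least 2.89-fold lower. For PLCB2 it was at least 4.30-fold lower with cantharidin, while OA gave 2.02-fold. The OA reading of PLCB2, 61.2 ± 13.4 units, was only 1.055 times the limit of that array. PLCD1 went in opposite directions, with 823, 396 and 2012 units in control, cantharidin and OA cells, which is 1.89-fold lower and 2.05-fold higher. PLCB3 and PLCG2 also went in opposite directions, but were higher under cantharidin and lower under OA. Their log2 differences were 0.76 and 0.85 under cantharidin and -0.79 and -0.69 under OA. The OA reading of PLCB3 was only 1.23 times the limit of that array. Of 6 diacylglycerol kinase genes compared, 3 were higher and 1 lower under cantharidin, and 2 higher and 1 lower under OA. DGKD, whose product turns diacylglycerol into phosphatidic acid, was 3.11-fold and 3.15-fold higher.

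Of 10 partners of the atypical isoforms compared, 3 were higher and 4 lower under cantharidin, and 1 higher and 2 lower under OA, where all genes gave 26.3% and 34.0% for cantharidin and 28.0% and 27.0% for OA. PARD6G, which encodes a PAR6 protein that holds atypical PKC, read 1163, 124 and 280 units in control, cantharidin and OA cells, lower by 8.50-fold with cantharidin and by 4.96-fold with OA.

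Among the substrates, 2 were higher and 6 lower of 10 compared under cantharidin, and 1 was higher and 4 lower of 9 under OA. The shares of all genes were 26.3% and 34.0% under cantharidin and 28.0% and 27.0% under OA. PEBP1, the RAF kinase inhibitor protein that PKC phosphorylates, was 4.44-fold and 4.23-fold lower. NRGN was 8.40-fold and 2.95-fold lower. PPP1R14A, which encodes an inhibitor of protein phosphatase 1 that PKC activates, was 5.90-fold and 2.89-fold lower, and its second probe gave 7.83-fold and 3.36-fold. MARCKSL1 also passed 2-fold with both agents but in the other direction, with log2 differences of 1.06 for cantharidin and 1.68 for OA. ADD3 lay on the lower side, at -3.01 for cantharidin and -1.26 for OA. Of the adaptors that carry PKC signals to NF-κB, 2 of 5 were higher and 1 lower under each agent. The brighter CARD9 probe was below background in control and read 105 units under cantharidin and 814 under OA, at least 3.31-fold and at least 19.5-fold, while its second probe was within 1.5-fold of control under both.

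Anchors and scaffolds gave 1 higher and 2 lower of 6 under cantharidin, and 2 higher and 0 lower of 6 under OA. Other diacylglycerol receptors gave 1 higher and 2 lower of 7 under cantharidin, and 1 higher and 2 lower of 8 under OA. The gene higher under cantharidin was RASGRP2, at 1.64-fold on its brightest probe. Its other 2 probes gave log2 differences of -1.49 and -0.11. The shares of all genes beside these counts were 26.3% higher and 34.0% lower under cantharidin and 28.0% and 27.0% under OA.

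**Figure D5:**
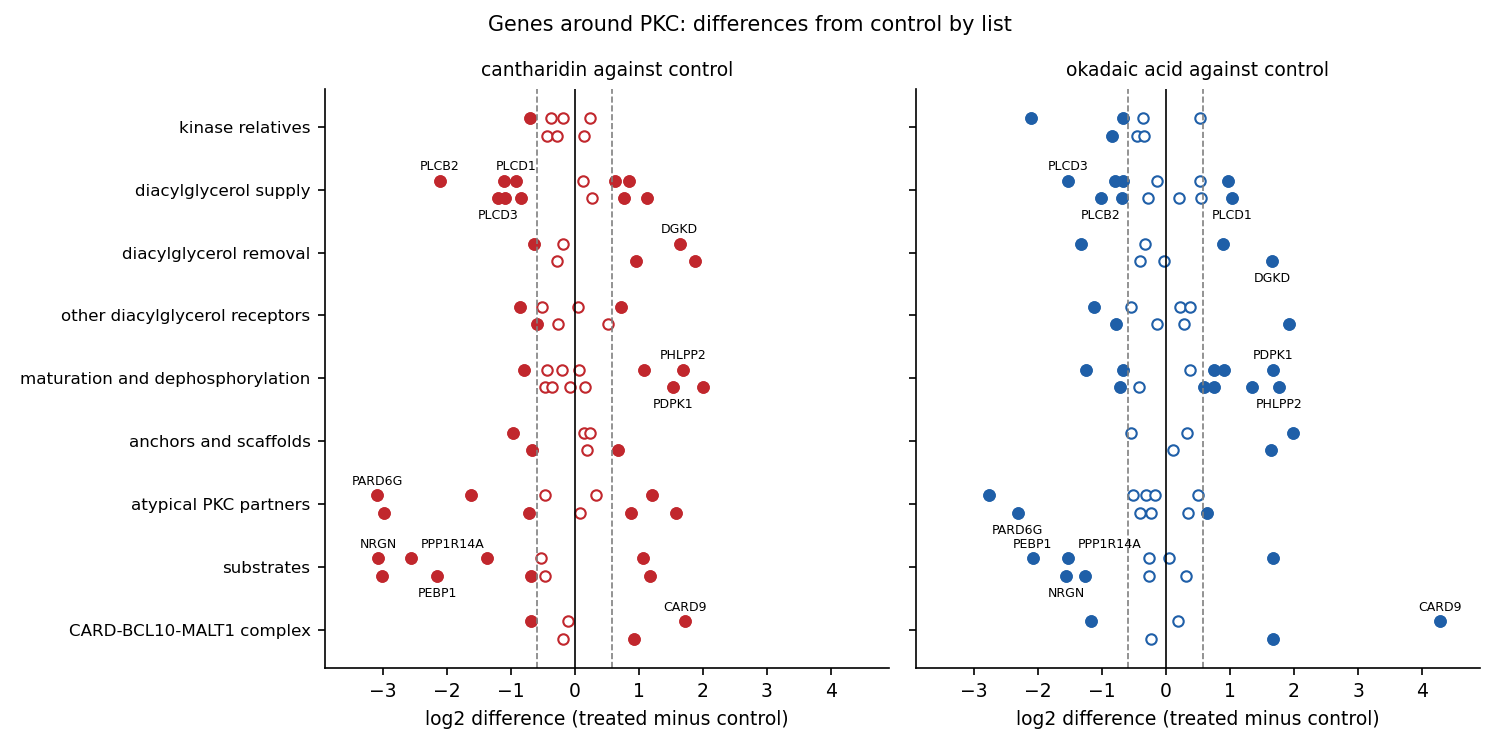
Log2 difference from control (treated minus control) of the genes in 9 lists around PKC, for cantharidin (left) and okadaic acid (right), with 1 point per gene, filled points past 1.5-fold (dashed lines) and labels for the genes named by rule (values that are bounds, such as those of CARD9, are drawn at the bound). PDPK1, PHLPP2 and DGKD lie to the right and PARD6G, PEBP1, NRGN and PPP1R14A to the left for both agents.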

How the data were processed

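The authors deposited the scanner output of 3 Agilent 1-colour arrays as spot intensity values (Feature Extraction 11.0.1.1, protocol GE1_1100_Jul11, design on hg19), background-subtracted and detrended within each array. The flags for outliers, for saturation and for a signal clearly over background were also used. The authors' table of normalized log2 values for 30923 probes, made by a method not given in the sources used here, served as an alternative. Log2 intensity was averaged over unflagged spots and each array's 75th percentile was subtracted. A probe entered a comparison if either array flagged it as well above background, and was called at 1.5-fold. A dim signal was set to the higher of itself and the lowest signal well above background on its array, which gives the "at least" folds. A gene was read on its brightest probe. Accessions were matched without version to RefSeq of GRCh38.p14, which named 25705 probes. The array design uses another build, so gene coordinates were not used. No probe matched LLGL1 or 3 non-coding neighbours (not analysed here).

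The PKC genes, the lists and their settings were chosen with earlier results of these data known. In the text, pathway genes were named if past 2-fold in the same direction under both agents or past 1.5-fold in opposite directions, at most 3 per list ranked by the smaller of the 2 changes. All 8 PKC genes, the matched non-coding neighbour and the 2 genes closest in pattern to the PKC gene with the largest difference were also named. PLCB3, PLCG2, ADD3 and MARCKSL1 met the rule beyond the 3 per list and were named as well. The results of some related kinases are not reported here. There were 13 alternatives for background, scaling, filter, dim signals, source, threshold and probe choice. The calculation was tested on simulated data. Versions were Python 3.11.15, pandas 2.3.3, numpy 2.4.6, matplotlib 3.10.9, limma 3.58.1 and R 4.3.3. The number of arrays limits the precision.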

Additional observations from a re-analysis of the deposited data

How the results depend on the processing

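No alternative turned the direction of a PKC gene called in the main setting. The counts of calls are small, so 1 gene can change them. Under cantharidin, 1 gene was higher at a 2-fold threshold, and without a filter on dim probes the median was -0.29. Under OA, 2 genes were lower with median scaling and with the authors' normalized table, and 0 were lower without scaling and at 2-fold. Without a filter 2 were higher, since PRKCB then counted at its reading below background. Without scaling the median was 0.041 (main -0.21). For OA against cantharidin, 0 genes were higher with normexp, median scaling, quantile normalization and the 2-fold threshold, 2 without scaling and 3 without a filter, and 2 were lower with median scaling. That median was 0.22 without scaling and 0.24 without a filter. The other 97 recomputed counts and medians stayed within 1.5 times the main count or within the spot error of the main median. Those from the median over probes, every probe and the dimmest probe had to, since each compared PKC gene had 1 probe. The limit is wide for small counts. Under cantharidin the count of lower genes ran from 2 to 4 around a main count of 3 and stayed within it. Leaving out scaling moved the median of all genes from -0.17 to -0.31 under cantharidin, from 0.02 to 0.29 under OA and from 0.14 to 0.55 between the agents, which shifts every gene alike. The gMeanSignal values planned for normexp were not used here, and the spot's median took their place. No paired analysis was possible because each group holds 1 array. Signals near the limit of an array, as for PRKCB and PRKCQ, give bounds or no fold.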
